A study of Sus scrofa with 18 samples.

Results

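The breed difference in the endometrial change between gestational day (GD) 50 and GD26 is described here for pigs. It is the Yorkshire change, GD50 minus GD26, minus the Meishan change over the same days, so a value above 0 means that a gene moved further up, or less far down, in Yorkshire endometrium. The contrast used 12 of the 18 arrays of the series and was computed for the non-control probe sets that passed an intensity of 100 in 3 or more of these 12. This left 9434 of 23999 probe sets, and 251 of them (2.66%) had a difference past the test.

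The study examined the endometrium of Meishan pigs, a prolific Chinese breed, and Yorkshire pigs, a less prolific one, in order to find genes tied to implantation and placentation. All animals were pregnant gilts mated to boars of their own breed, with no further treatment, and the labels set the groups apart by breed and day. The groups are Yorkshire GD50, Yorkshire GD26, Meishan GD50 and Meishan GD26, with 3 arrays each, and the 6 GD15 arrays are shown only as levels. Each array held RNA of 1 conceptus attachment site from each of 2 gilts, and the same 2 gilts stand behind all 3 arrays of a group. The p-values thus measure only the spread between site pools, and a difference between breeds cannot be told apart from a difference between the 8 gilts behind the 12 arrays.

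In pigs the trophoblast attaches to the surface of the uterine epithelium without invading it, and the epithelia of mother and conceptus fold together into a placenta that keeps growing through mid-gestation. The uterine glands feed the conceptus with secretions, while transporters, the vessels and local immune cells of the endometrium are remodelled. Around implantation, pig conceptuses release interferons, and a set of antiviral genes in the endometrium responds to them. GD26 lies at the end of implantation and GD50 in the period of the settled placenta.

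The median of the tested probe sets was 7.77 to 8.01 on the log2 scale in Yorkshire GD50 arrays, 7.85 to 8.12 in Yorkshire GD26 arrays, 8.30 to 8.31 in Meishan GD50 arrays and 8.29 to 8.32 in Meishan GD26 arrays. The Yorkshire arrays of both days were thus dimmer, and the breed difference in the change of these medians was -0.07. The hybridization controls had a mean log2 level of 12.74 to 13.67 in Yorkshire GD50 arrays and 11.71 to 13.13 in Yorkshire GD26 arrays, where replicate 1 was the low one, and of 11.14 to 11.33 in Meishan GD50 arrays and 10.66 to 11.07 in Meishan GD26 arrays. The actin 3′ minus 5′ signal, which rises as RNA degrades or as labelling shortens, averaged 2.77 in Yorkshire GD50, 2.50 in Yorkshire GD26, 4.93 in Meishan GD50 and 3.72 in Meishan GD26 arrays, and its own breed difference in change was -0.93. The breed difference in change of the like signal was 0.02 for GAPDH and -0.47 for EF1a, and neither was tried as a covariate. With the actin signal as a covariate 1 probe set, that of APOA2, was called higher and 2 lower. APOA2 was the only one of 62 named called probe sets that kept its call. It lay near the lowest values in every array outside Meishan GD26 and entered the test only through the Meishan GD26 arrays. The Yorkshire GD15 arrays did not share the levels of the later Yorkshire arrays, with medians of 8.29 to 8.31, hybridization controls of 10.43 to 11.11 and actin signals of 4.24 to 4.65. The labels name no batch of arrays, so a batch that followed the breed at GD26 and GD50 cannot be told apart from the breed.

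A placental marker bears on what the tissue labelled endometrium held. PLET1, a trophoblast surface protein, lay between 14.37 and 15.14 in all 12 arrays, against 2.19 to 2.32 in the GD15 arrays of both breeds. The transcript of this marker was thus abundant in the GD26 and GD50 samples of both breeds and near the lowest values at GD15. Of the trophoblast and placenta list, 15 of 19 genes on the array passed the filter. TFAP2C, CYP19A1, CYP17A1 and CGA did not. In such bulk samples, fewer cells of a type and less RNA per cell cannot be told apart.

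Of the 9434 probe sets, 128 had a higher change in Yorkshire (1.36% of those tested) and 123 a lower one (1.3%) at a Benjamini-Hochberg adjusted p under 0.05 in limma, the test behind every adjusted p given here. The difference was at least 1 on the log2 scale, which is a 2-fold ratio of ratios, in 241 of the 251. Within the breeds, 1707 probe sets changed between the days in Yorkshire (18.1%, 7.67% up and 10.4% down) and 1218 in Meishan (12.9%, 5.52% up and 7.39% down). Yorkshire and Meishan differed at GD50 in 52.8% of the probe sets, with Yorkshire lower in 40.9%, and at GD26 in 48.9%, with Yorkshire lower in 37.4%, and the dimmer Yorkshire arrays enter these shares. At an unadjusted p under 0.05, 1630 breed differences passed. The changes of the breeds correlated at 0.551 across probe sets, which are not independent replicates, and the median difference was -0.03. The call counts rest on single arrays: without replicate 1 of Meishan GD50, 48 were called higher and 55 lower, and without replicate 1 of Yorkshire GD26, 288 were called higher and 143 lower. For a single gene whose call held in fewer than 19 of the 24 other settings tried, the covariates included, the number of settings that kept it is given.

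**Figure D1:**
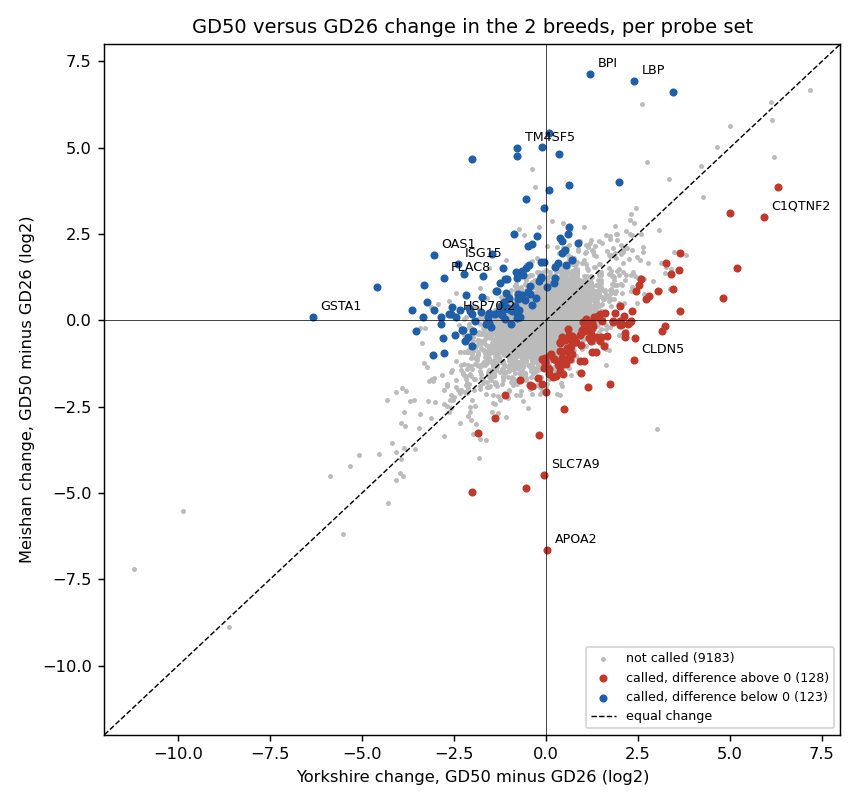
Change between GD50 and GD26 in Yorkshire (x axis, log2) and Meishan (y axis, log2) for each of 9434 probe sets; the dashed line marks equal change. Called probe sets lie away from the line on both sides, 128 below it in red and 123 above it in blue, and the genes with antiviral roles sit in the upper left, where Yorkshire fell and Meishan rose.

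The called probe sets fall into a few classes by what each breed did. Among the 128 with a higher Yorkshire change, 55 rose in Yorkshire without a called change in Meishan, 41 fell in Meishan without a called change in Yorkshire, and 16 rose in Yorkshire and fell in Meishan. Among the 123 with a lower change, 60 fell in Yorkshire alone, 41 rose in Meishan alone, and 13 fell in Yorkshire and rose in Meishan. The arrays of GD50 and GD26 did not overlap in Yorkshire in 95 of the 128 and 91 of the 123 called probe sets. In Meishan they did not overlap in 86 and 85. The probe sets were selected for a difference in these changes, so the counts follow in part from the selection. The share over all tested probe sets was not computed.

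The GD15 arrays, which the contrast did not use, place these genes at an earlier stage. After the median of each array was removed, the median gap of Yorkshire minus Meishan over the 128 higher probe sets was -0.01 at GD15, -0.68 at GD26 and 0.93 at GD50. Over the 123 lower probe sets it was 0.07 at GD15, 0.86 at GD26 and -0.83 at GD50. The GD26 and GD50 gaps are set by the selection of these probe sets, and the GD15 gap is not. The size of the GD15 gap without its sign had a median of 0.44 over the higher and 0.32 over the lower probe sets, against 0.23 over all those tested. Over all those tested this size was 0.48 at GD26 and 0.50 at GD50, where the Yorkshire arrays had the shifted levels given above.

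Interferon response genes were the list with the most called members on the lower side. Of 19 measured genes, 11 had a lower change in Yorkshire and none a higher one, against 60 lower and 57 higher of 4366 genes (1.37% and 1.31%). In Yorkshire endometrium 9 of the 19 fell between GD26 and GD50 and none rose, while in Meishan endometrium 9 rose and 1, PSMB8, a subunit of the immunoproteasome, fell. When values under an intensity of 100 were set to 100, 6 fell in Yorkshire, 11 rose in Meishan, and 11 were called lower again. The share called lower with that floor was 57.9%, against 2.2% of all genes. The median breed difference of the list was -1.88, against 0.01 over all genes and -0.97 with that floor.

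OAS1, an antiviral enzyme whose product activates RNase L, stood at 5.44, 4.82 and 6.53 in the Yorkshire GD50 arrays, against 8.61, 8.62 and 8.69 in the Yorkshire GD26 arrays. In Meishan it stood at 11.12, 11.29 and 11.30 in the GD50 arrays, against 8.83, 9.51 and 9.74 in the GD26 arrays. The days did not overlap in either breed, and the breeds parted in opposite directions. All Yorkshire GD50 values lay under an intensity of 100, so OAS1 was at least 3.99-fold lower there than at GD26, and its breed difference was -4.93 ± 0.51 (SE, adjusted p = 0.000475).

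ISG15, a ubiquitin-like protein that is joined to other proteins after interferon, gave 8.92, 7.84 and 8.98 in Yorkshire GD50 arrays, against 10.83, 11.21 and 10.88 in Yorkshire GD26 arrays. Its Meishan values were 12.75, 12.93 and 13.01 at GD50, against 10.77, 11.25 and 11.76 at GD26. At GD26 the breeds overlapped, and at GD50 every Meishan array lay above every Yorkshire array. The Yorkshire change was -2.40 and the Meishan change 1.64, a difference of -4.03 ± 0.44 (SE, adjusted p = 0.000803) with no value under an intensity of 100.

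RSAD2, the antiviral protein viperin, stood at 6.32, 5.61 and 7.42 in Yorkshire GD50 arrays, against 9.05, 8.92 and 8.03 in Yorkshire GD26 arrays. The Meishan arrays read 9.73, 9.78 and 9.68 at GD50, against 8.18, 8.13 and 8.84 at GD26. The days did not overlap in either breed, although the Meishan change of 1.35 did not pass the test (adjusted p = 0.0509). The difference was -3.57 ± 0.58 (SE, adjusted p = 0.00915).

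MX1, a GTPase that blocks virus replication, gave 8.70, 8.89 and 9.25 in Yorkshire GD50 arrays, against 9.90, 10.15 and 10.06 in Yorkshire GD26 arrays. In Meishan the values were 11.36, 11.56 and 11.63 at GD50, against 10.40, 10.86 and 10.93 at GD26. Again the days did not overlap in either breed, and MX1 fell in Yorkshire by 1.09 and rose in Meishan by 0.79.

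The IFIT proteins bind foreign RNA, and the measured members were all lower. IFIT3 stood at 6.88, 7.18 and 6.64 in Yorkshire GD50 arrays, against 8.32, 8.38 and 8.06 in Yorkshire GD26 arrays, and at 9.66, 9.80 and 9.67 in Meishan GD50 arrays, against 8.63, 8.75 and 9.23 in Meishan GD26 arrays. Here too GD50 was low in Yorkshire and high in Meishan without overlap, with a difference of -2.19 (adjusted p = 0.00252). IFIT1 was called on both of its probe sets, at -2.34 and, in 17 of 24 settings, at -1.99. IFIT2 stayed under an intensity of 100 in the Yorkshire arrays of both days and reached 7.60, 7.67 and 7.57 in Meishan GD50 arrays, at least 1.96-fold above the Meishan GD26 arrays.

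Sensors and transcription factors of the pathway were called as well. IRF7, which drives interferon genes, gave 5.72, 5.11 and 5.56 in Yorkshire GD50 arrays, against 6.64, 6.94 and 6.82 in Yorkshire GD26 arrays, and 7.61, 7.62 and 7.46 in Meishan GD50 arrays, against 6.42, 6.55 and 7.19 in Meishan GD26 arrays. Its difference was -2.18 (adjusted p = 0.00547), or -0.89 with the floor of 100, since its Yorkshire GD50 values lay under it. DDX58, which encodes the RNA sensor RIG-I, differed by -2.67 in 14 of 24 settings, or by -1.77 with the floor. XAF1, an interferon-induced promoter of cell death, differed by -3.0, or by -1.09 with the floor, and its Yorkshire means lay under 100 on both days. STAT2, a part of the interferon signalling complex, differed by -1.38, also with Yorkshire means under 100 on both days, and its call held in 5 of 24 settings and not with the floor. Not all members took part. IRF9, the partner of STAT2, with all group means under 100, had a difference of -0.13, IRF1 of -0.03 and GBP1 of 0.64, and none of these passed.

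At GD15 the gap of Yorkshire minus Meishan had a median of -0.06 over the 19 interferon genes and ranged from -1.19 to 1.74, with Yorkshire higher in 9. The median gap was -0.49 at GD26 and -2.55 at GD50, and Yorkshire was higher in 4 genes at GD26 and in 1 at GD50. The days 26 and 50 carry the selection by the contrast, and the dimmer Yorkshire arrays enter both. The number of lower calls in the list ranged from 8, reached without Meishan GD26 replicate 1, to 10 when single arrays were left out. It was 10 without Yorkshire GD26 replicate 1.

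**Figure D2:**
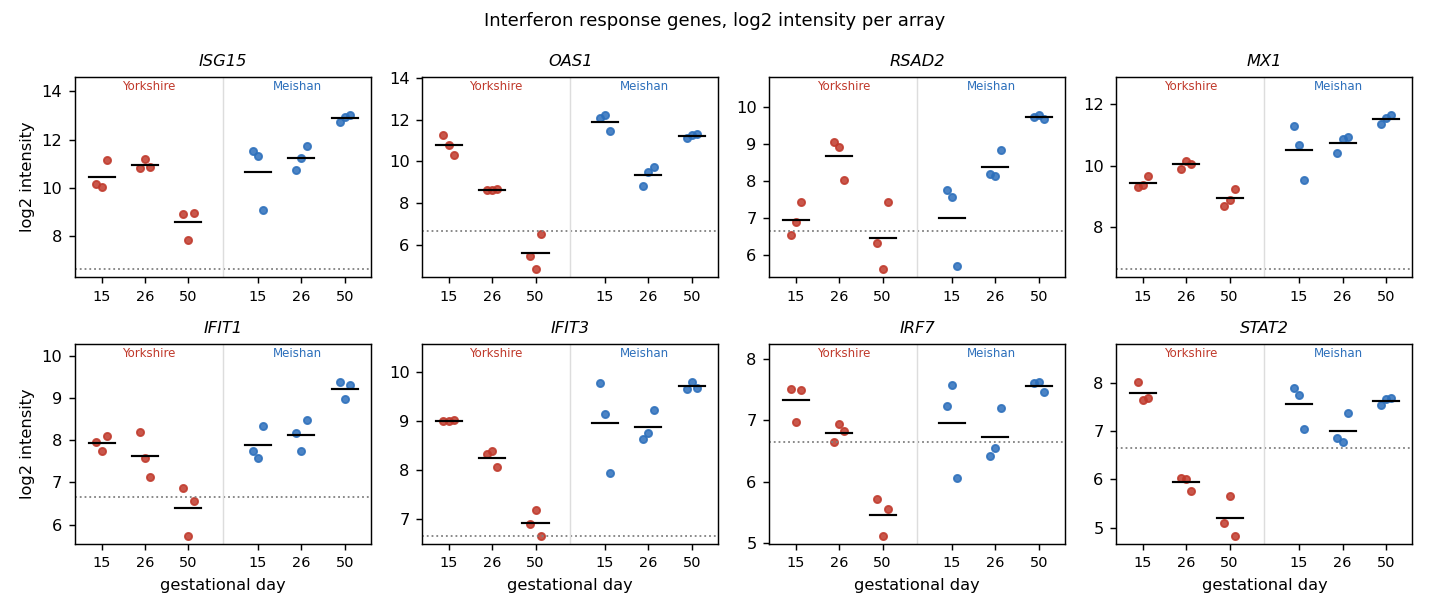
Log2 intensity of 8 interferon response genes in each array (points) with the group mean (bar), for Yorkshire in red and Meishan in blue at GD15, GD26 and GD50; the dotted line marks an intensity of 100. Between GD26 and GD50 the group means move down in Yorkshire and up in Meishan in each of the 8 panels, and those of STAT2 lie under the dotted line in Yorkshire on both days.

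Genes on the list of trophoblast and placenta markers all had a difference below 0. Of 15 measured genes, 5 had a lower change in Yorkshire (33.3%, against 1.37% of all genes), none a higher one, and the median difference was -0.87, against 0.01 over all genes. The called genes are PLAC1, PLAC8, IGF2, HSD3B1 and PPAG3, and PLAC8 among them is also a protein of the uterus and of immune cells. What lay behind the difference varied between them: PLAC1 and IGF2 rose in Meishan alone, HSD3B1 and PPAG3 fell in Yorkshire alone, and PLAC8 fell in Yorkshire and rose in Meishan.

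PLAC1, a membrane protein of trophoblast, stood at 9.25, 8.52 and 9.47 in Yorkshire GD50 arrays, against 9.76, 8.18 and 9.59 in Yorkshire GD26 arrays, with full overlap. The Meishan arrays read 10.45, 10.65 and 10.24 at GD50, against 6.55, 6.44 and 3.27 at GD26. Yorkshire was thus already high at GD26, while Meishan reached a like level by GD50, at least 13.95-fold above its GD26 arrays. The difference was -5.12 ± 1.04 (SE, adjusted p = 0.0272) with the call kept in 17 of 24 settings, and -4.47 on the second, brighter probe set, with 13 of 24.

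IGF2, the main fetal growth factor of the insulin-like family, gave 13.59, 13.05 and 13.78 in Yorkshire GD50 arrays, against 13.06, 12.30 and 13.15 in Yorkshire GD26 arrays. In Meishan it gave 9.50, 9.23 and 9.07 at GD50, against 6.10, 5.08 and 4.85 at GD26, at least 6.17-fold higher at GD50. Every Yorkshire array lay above every Meishan array, and only the Meishan days were apart. The difference on this brightest probe set was -3.29 (adjusted p = 0.00555), or -1.99 with the floor of 100. The other 5 probe sets of IGF2 were also below 0 and 2 of them were called, but with the floor neither was called and 4 of the 5 were above 0, from 0.36 to 0.59. The remaining one was not called as deposited, at -2.88 (adjusted p = 0.0601), and was called with the floor, at -2.75 (adjusted p = 0.0288).

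PLAC8, a small cysteine-rich protein of the uterus and of immune cells, stood at 4.20, 5.24 and 4.52 in Yorkshire GD50 arrays, against 7.16, 7.66 and 7.48 in Yorkshire GD26 arrays. In Meishan it stood at 10.66, 10.58 and 10.51 at GD50, against 9.03, 9.34 and 9.72 at GD26. The direction was opposite in the breeds, as for the interferon genes, and Yorkshire GD50 was at least 1.73-fold lower than Yorkshire GD26. Its difference was -4.00 ± 0.37 (SE, adjusted p = 0.000216), or -2.01 with the floor of 100.

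HSD3B1, an enzyme that makes progesterone, ran the other way round in that Meishan stayed level. It gave 8.0, 8.07 and 7.90 in Yorkshire GD50 arrays, against 10.98, 10.89 and 10.66 in Yorkshire GD26 arrays, and 8.83, 9.63 and 8.17 in Meishan GD50 arrays, against 9.68, 9.13 and 8.14 in Meishan GD26 arrays. Only the Yorkshire days were apart, and the difference of -2.75 held in 17 of 24 settings. The second probe set of HSD3B1 had -1.03 and was not called (adjusted p = 0.448). PPAG3, a pregnancy-associated glycoprotein of trophoblast, fell in Yorkshire by 0.76 and had a difference of -1.51 (adjusted p = 0.033) that held in 13 of 24 settings.

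PAG6, a further pregnancy-associated glycoprotein, rose in Meishan by 1.81 but its difference of -2.05 did not pass (adjusted p = 0.106). Its Meishan GD26 arrays read 13.87, 13.46 and 11.79, and replicate 3 was the low one there, as it was for PLAC1. The summed intensity of the 15 markers was 63715 to 85949 in Yorkshire GD50 arrays, 115188 to 129713 in Yorkshire GD26 arrays, 80590 to 103473 in Meishan GD50 arrays and 72005 to 105012 in Meishan GD26 arrays. The sum was thus highest in Yorkshire GD26, and its part in the results was not tested. Without Meishan GD26 replicate 3, 4 of the 15 were called, and without Meishan GD50 replicate 1, 2 were.

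Of 4 measured markers of red cells, 1 was called lower (25%, against 1.37% of all genes), and all 4 had a difference below 0. They did not move together: in Yorkshire 1 rose and 2 fell, and in Meishan 1 rose and 1 fell. HBE1, the embryonic globin, stood at 2.67, 2.67 and 2.87 in Yorkshire GD50 arrays, against 13.81, 14.06 and 13.94 in Yorkshire GD26 arrays. In Meishan it stood at 2.87, 3.07 and 2.68 at GD50, against 12.64, 10.96 and 6.64 at GD26. It fell in both breeds, at least 157-fold in Yorkshire and at least 10.8-fold in Meishan, and its difference of -3.99 did not pass (adjusted p = 0.199). ALAS2, the first enzyme of heme synthesis in red cells, was called at -2.91 and in 17 of 24 settings, but not when values under 100 were set to 100 or without Meishan GD26 replicate 3. The summed intensity of the 4 erythroid markers was 1692 to 2315 in Yorkshire GD50, 15843 to 18608 in Yorkshire GD26, 1650 to 1991 in Meishan GD50 and 808 to 7435 in Meishan GD26 arrays. HBE1 makes up most of the sum in the Yorkshire GD26 arrays.

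Several further genes were low in Meishan at GD26 and high in the other 3 groups. BPI, which binds the endotoxin of bacteria, gave 12.81, 12.35 and 13.10 in Yorkshire GD50 arrays, against 13.10, 12.21 and 12.68 in Yorkshire GD26 arrays. Its Meishan values were 13.82, 13.76 and 13.59 at GD50, against 10.20, 9.05 and 5.66 at GD26. The Yorkshire days overlapped and the Meishan days did not, and both BPI probe sets were called, at -5.33 and -5.93, the first in 12 of 24 settings. At GD15 BPI lay between 2.55 and 2.8 in both breeds.

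TM4SF5, a membrane protein of the tetraspanin type, had the same course. It stood at 8.67, 7.86 and 8.41 in Yorkshire GD50 arrays, against 9.55, 8.34 and 9.38 in Yorkshire GD26 arrays, and at 10.32, 10.66 and 9.82 in Meishan GD50 arrays, against 6.74, 5.54 and 3.55 in Meishan GD26 arrays. Its probe sets were both called, at -5.77 and -5.54. In each of PLAC1, BPI and TM4SF5 the lowest Meishan GD26 array was replicate 3.

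RBP7, which carries retinol inside cells, rose in both breeds and more in Meishan. It gave 13.98, 13.75 and 13.44 in Yorkshire GD50 arrays, against 11.90, 11.68 and 11.65 in Yorkshire GD26 arrays, and 13.38, 13.41 and 13.40 in Meishan GD50 arrays, against 9.79, 9.46 and 8.91 in Meishan GD26 arrays. The rise was 1.98 in Yorkshire and 4.01 in Meishan (difference -2.02, adjusted p = 0.00748). CBR1, a carbonyl reductase that acts on prostaglandins, rose by 0.55 in Yorkshire and by 1.61 in Meishan, with the difference kept in 16 of 24 settings. FOLR1, the folate receptor, had a Yorkshire change of 0.32 that did not pass and rose in Meishan by 1.65, and its GD50 levels were 11.47, 11.41 and 11.50 in Yorkshire, against 11.03, 11.24 and 11.14 in Meishan. Its second probe set ran differently: it fell in Yorkshire by 1.90 with -0.02 in Meishan, and its difference of -1.88 was not called (adjusted p = 0.224).

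LBP, which hands endotoxin to its receptor, was near the lowest values of the arrays at GD26 in both breeds. At GD50 it gave 5.99, 3.36 and 4.43 in Yorkshire, against 9.1, 8.98 and 9.45 in Meishan. Only Meishan GD50 passed an intensity of 100, where LBP was at least 5.79-fold above Meishan GD26, and its difference of -4.53 was -2.53 with the floor of 100. SST, the hormone somatostatin, stayed between 2.49 and 3.50 in the Yorkshire arrays of both days, and in Meishan read 8.95, 9.26 and 9.67 at GD50, against 5.90, 6.93 and 6.93 at GD26.

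Heat-shock proteins refold damaged proteins and are induced by stress. HSP70.2, the inducible heat-shock protein of the pig, stood at 11.00, 11.27 and 11.20 in Yorkshire GD50 arrays, against 13.70, 13.44 and 13.67 in Yorkshire GD26 arrays. The Meishan arrays read 10.66, 10.58 and 10.87 at GD50, against 10.50, 10.68 and 10.65 at GD26. Yorkshire GD26 stood above all the rest, the GD15 arrays included, which lay between 11.16 and 11.76. All 3 probe sets of HSP70.2 were called, from -2.54 to -2.28 (lowest adjusted p = 0.000147).

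Further chaperones fell in Yorkshire as well. HSPH1, a nucleotide exchange factor of these chaperones, gave 9.0, 9.44 and 9.50 in Yorkshire GD50 arrays, against 12.02, 11.24 and 11.30 in Yorkshire GD26 arrays, and the Meishan GD50 arrays gave 9.97, 10.06 and 10.05, against 10.68, 10.71 and 10.43 at GD26, with the days apart in both breeds. DNAJB1, a cochaperone, fell in Yorkshire by 1.49 with no called change in Meishan. HSPA6, an inducible chaperone, was at least 2.16-fold lower in Yorkshire GD50 than in Yorkshire GD26, and stayed under an intensity of 100 in Meishan. Its difference of -3.42 was not called when values under 100 were set to 100. The list of chaperones and the proteasome as a whole did not follow: 4 of its 68 measured genes (5.88%, against 1.37% of all genes) were lower, none was higher, and its median was -0.06. These 4 were HSPH1, DNAJB1, HSPA6 and HSP90AA1, and HSP70.2 is not in the list. HSP90AA1 was called on 1 of its 5 probe sets and in 10 of 24 settings. Without Meishan GD50 replicate 1, 1 of the 68 was called.

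FGL2, a membrane prothrombinase that also acts on T cells, had a high Yorkshire level on both early days. It stood at 9.42, 9.24 and 9.89 in Yorkshire GD50 arrays, against 12.14, 12.23 and 12.08 in Yorkshire GD26 arrays, and at 10.16, 9.83 and 10.01 in Meishan GD50 arrays, against 9.98, 9.83 and 9.68 in Meishan GD26 arrays. Only the Yorkshire days were apart, and at GD15 Yorkshire read 11.49, 11.50 and 11.57, against 8.70, 9.13 and 8.62 in Meishan. Its 3 probe sets were called, from -2.8 to -2.64.

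**Figure D3:**
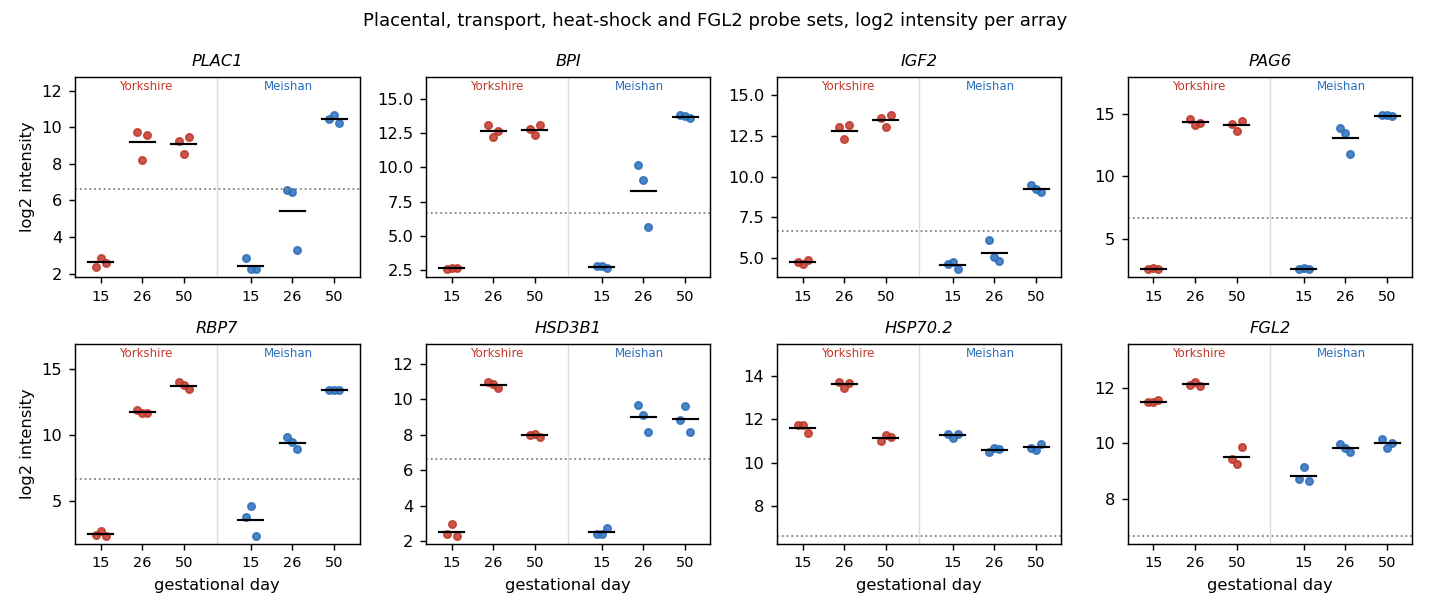
Log2 intensity of PLAC1, BPI, IGF2, PAG6, RBP7, HSD3B1, HSP70.2 and FGL2 in each array (points) with the group mean (bar), for Yorkshire in red and Meishan in blue at GD15, GD26 and GD50; the dotted line marks an intensity of 100. Meishan GD26 has the lowest mean after GD15 in the first 5 panels, and Yorkshire GD26 the highest mean in the last 3.

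GSTA1, a detoxifying glutathione transferase, had the largest lower difference among the probe sets with 1 gene symbol. It gave 6.32, 5.98 and 7.13 in Yorkshire GD50 arrays, against 13.11, 12.47 and 12.82 in Yorkshire GD26 arrays, while the 6 Meishan arrays lay between 2.67 and 3.63. The second probe set of GSTA1 fell in both breeds and was not called (-1.17, adjusted p = 0.161). The value of -6.42 thus rests on 1 of 2 probe sets that do not show the same Meishan level.

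ALDH1A1, which makes retinoic acid, stood at 10.50, 10.86 and 11.21 in Yorkshire GD50 arrays, against 12.92, 13.22 and 13.22 in Yorkshire GD26 arrays, and at 9.73, 9.80 and 10.13 in Meishan GD50 arrays, against 9.58, 10.34 and 10.57 in Meishan GD26 arrays. A called fall was found only in Yorkshire, on both probe sets, and the difference on the second was called in 13 of 24 settings. The Meishan change on the second was -0.94 and narrowly missed the threshold (adjusted p = 0.055). SLC39A2, a zinc importer, fell in Yorkshire by 2.12 and AQP3, a channel for water and glycerol, by 1.54, with no called change in Meishan, although the AQP3 difference was called in 13 of 24 settings. The largest lower difference of all, -6.69, belonged to a probe set with 2 gene symbols, which is left unnamed.

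On the other side, CLDN5, GJA4, RGS5 and SPARCL1, which are known from vessel walls, rose in Yorkshire and fell in Meishan. CLDN5, the tight junction protein of endothelium, stood at 7.58, 7.63 and 8.2 in Yorkshire GD50 arrays, against 5.77, 5.19 and 5.29 in Yorkshire GD26 arrays. In Meishan it stood at 5.90, 5.71 and 5.52 at GD50, against 6.72, 7.06 and 6.78 at GD26. The days did not overlap in either breed, Yorkshire GD50 was at least 2.24-fold above Yorkshire GD26, and Meishan GD50 at least 1.16-fold below Meishan GD26. The difference was 3.53 ± 0.31 (SE, adjusted p = 0.00019) as deposited and 1.37 with the floor of 100, where it was still called.

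GJA4, a gap junction protein of arteries, gave 6.79, 7.95 and 7.48 in Yorkshire GD50 arrays, against 6.33, 6.39 and 6.39 in Yorkshire GD26 arrays, and 6.49, 6.77 and 6.30 in Meishan GD50 arrays, against 7.48, 7.90 and 7.73 in Meishan GD26 arrays. RGS5, a marker of pericytes, stood at 11.97, 12.22 and 11.98 in Yorkshire GD50 arrays, against 11.61, 11.36 and 11.21 in Yorkshire GD26 arrays, and at 11.47, 11.07 and 11.44 in Meishan GD50 arrays, against 12.30, 11.86 and 12.11 in Meishan GD26 arrays. Both genes rose in Yorkshire and fell in Meishan without overlap of the days. GJA4 was at least 1.70-fold higher in Yorkshire GD50 than in Yorkshire GD26, whose values lay under 100, and changed by -1.18 in Meishan. RGS5 changed by 0.66 in Yorkshire and by -0.76 in Meishan. SPARCL1, a matrix protein of vessels, had 0.67 in Yorkshire and -0.74 in Meishan.

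The endothelial list itself did not move as a group. CLDN5 was the only one of its 23 measured genes called (4.35%, against 1.31% of all genes called higher), and the median was 0.39, or 0.10 with values under 100 set to 100. PECAM1 and CDH5, junction proteins of all endothelium, had differences of 0.07 and 0.04, and VWF, the clotting factor stored there, of -0.20. None of these 3 passed.

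CHPT1, an enzyme of phosphatidylcholine synthesis, moved in opposite directions as well. It gave 11.06, 11.29 and 11.34 in Yorkshire GD50 arrays, against 9.96, 10.02 and 9.94 in Yorkshire GD26 arrays, and 9.22, 9.29 and 9.20 in Meishan GD50 arrays, against 10.19, 9.99 and 10.25 in Meishan GD26 arrays. The breeds overlapped at GD26 and were far apart at GD50, with a difference of 2.16 ± 0.20 (SE, adjusted p = 0.000215). UBXN4, LITAF and PNRC2 also rose in Yorkshire and fell in Meishan, each on 1 of its 2 probe sets.

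Genes of the cytokine and chemokine list, not all of them cytokines, were mostly above 0. Of 12 measured, 3 had a higher change in Yorkshire (25%, against 1.31% of all genes), none a lower one, and the median was 0.97. IL18, a cytokine that activates lymphocytes, stood at 9.55, 10.26 and 9.45 in Yorkshire GD50 arrays, against 8.36, 7.61 and 7.30 in Yorkshire GD26 arrays, and at 9.92, 10.06 and 9.96 in Meishan GD50 arrays, against 10.10, 10.19 and 10.07 in Meishan GD26 arrays. Meishan was high on both days and Yorkshire at GD50 came near that level, with a difference of 2.14 (adjusted p = 0.0145).

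TNFAIP1, a protein induced by tumour necrosis factor, had the same course, with 8.65, 8.49 and 8.72 in Yorkshire GD50 arrays, against 7.0, 6.83 and 6.57 in Yorkshire GD26 arrays, and 8.96, 9.14 and 9.06 in Meishan GD50 arrays, against 9.06, 9.23 and 9.0 in Meishan GD26 arrays. TGFB1 differed in another way, since it was at least 1.57-fold lower in Meishan GD50 than in Meishan GD26, with a Yorkshire change of 0.22, and its call held in 13 of 24 settings and not with the floor of 100. IL6 rose in Yorkshire by 1.98 and CXCR4, a chemokine receptor, by 1.17, but their differences of 1.47 and 1.70 missed the threshold (adjusted p = 0.0708 and 0.0725). CXCL14 fell in both breeds, with a difference of 0.08. Without Meishan GD26 replicate 3, 2 of the 12 were called, and without Yorkshire GD26 replicate 1, 5 were.

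Macrophage and neutrophil genes lay above 0 in 14 of 15 cases, with a median of 0.51, and 1 was called (6.67%, against 1.31% of all genes called higher). It was LAPTM5, a lysosomal protein of blood cells, with 9.21, 9.22 and 9.13 in Yorkshire GD50 arrays, against 9.75, 9.68 and 9.28 in Yorkshire GD26 arrays, and 8.54, 8.26 and 8.72 in Meishan GD50 arrays, against 10.48, 10.09 and 10.64 in Meishan GD26 arrays. Only its Meishan fall was called, although its Yorkshire GD50 arrays also lay below those of GD26. The summed intensity of the list was 17726 to 23388 in Yorkshire GD50 arrays, 5903 to 7628 in Yorkshire GD26 arrays, 17678 to 19761 in Meishan GD50 arrays and 9123 to 10114 in Meishan GD26 arrays, so it was higher at GD50 in both breeds. S100A9, a neutrophil protein, rose by 3.47 in Yorkshire and by 1.99 in Meishan, with a difference of 1.48 (adjusted p = 0.0685). Only 2 lymphocyte genes were measured, GNLY and CCL5, and neither was called.

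Of 17 genes of antigen presentation, 1 was called (5.88%, against 1.31% of all genes called higher). With the floor of 100, 3 were called higher (17.6%, against 2.38%). SLA-8, a class I gene of the swine major histocompatibility complex, rose in Yorkshire by 0.56 and fell in Meishan by 0.79 on 1 probe set, and both of its probe sets were called, at 1.35. The other 16 measured genes of the list were not called, among them SLA-DRA and SLA-DQB1 of class II with differences of 1.02 and 1.01. Class I genes are near-identical copies, so their probe sets may share signal. B2M, the light chain of class I, was called lower on 1 of 8 probe sets, at -2.25, and had 0.17 on the brightest. With the floor of 100 that call was lost, and another of its probe sets was called lower, at -1.48 (adjusted p = 0.0317).

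Some of the largest higher differences belonged to secreted proteins. C1QTNF2, a secreted protein of the complement and tumour necrosis factor family, gave 11.16, 10.93 and 10.61 in Yorkshire GD50 arrays, against 6.01, 5.44 and 3.52 in Yorkshire GD26 arrays. In Meishan it gave 8.26, 8.21 and 8.33 at GD50, against 5.11, 5.47 and 5.23 at GD26. It rose in both breeds, at least 19.1-fold in Yorkshire and at least 3.08-fold in Meishan, and its difference of 2.92 was called in 11 of 24 settings. Its relative C1QTNF5 rose in Yorkshire alone, by 2.27.

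CLU, the secreted chaperone clusterin, stood at 14.19, 14.03 and 14.27 in Yorkshire GD50 arrays, against 9.69, 10.92 and 11.08 in Yorkshire GD26 arrays, and at 12.98, 12.75 and 13.16 in Meishan GD50 arrays, against 11.19, 11.57 and 11.74 in Meishan GD26 arrays. Yorkshire GD50 was the highest group and Yorkshire GD26 the lowest. The rise was 3.6 in Yorkshire and 1.47 in Meishan, and the call held in 15 of 24 settings. RARRES1, a protein induced by retinoids, was called on 2 of 3 probe sets, at 1.60 and 4.15, the larger being 2.01 with the floor of 100. The remaining probe set was called with the floor only, at 1.47 (adjusted p = 0.043). SFRP1, an inhibitor of WNT signals, was at least 3.40-fold higher in Yorkshire GD50 than in Yorkshire GD26, with a change of -0.03 in Meishan, and its difference held in 14 of 24 settings.

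Other genes rose in Yorkshire from a level below that of Meishan. S100G, a calcium-binding protein of the uterus, gave 11.05, 11.50 and 11.03 in Yorkshire GD50 arrays, against 8.33, 8.99 and 8.53 in Yorkshire GD26 arrays, and 12.16, 12.38 and 12.22 in Meishan GD50 arrays, against 11.05, 10.97 and 11.16 in Meishan GD26 arrays. It rose in both breeds and had higher Meishan arrays on both days, and the difference of 1.38 held in 16 of 24 settings. GADD45G, a stress-induced growth inhibitor, rose at least 2.95-fold in Yorkshire and by 1.03 on the log2 scale in Meishan, with the difference kept in 11 of 24 settings and not with the floor of 100. TMEM176B, a membrane protein of immune cells, rose in Yorkshire by 1.66 and RPIA, an enzyme of the pentose phosphate pathway, by 1.51, with no called Meishan change.

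**Figure D4:**
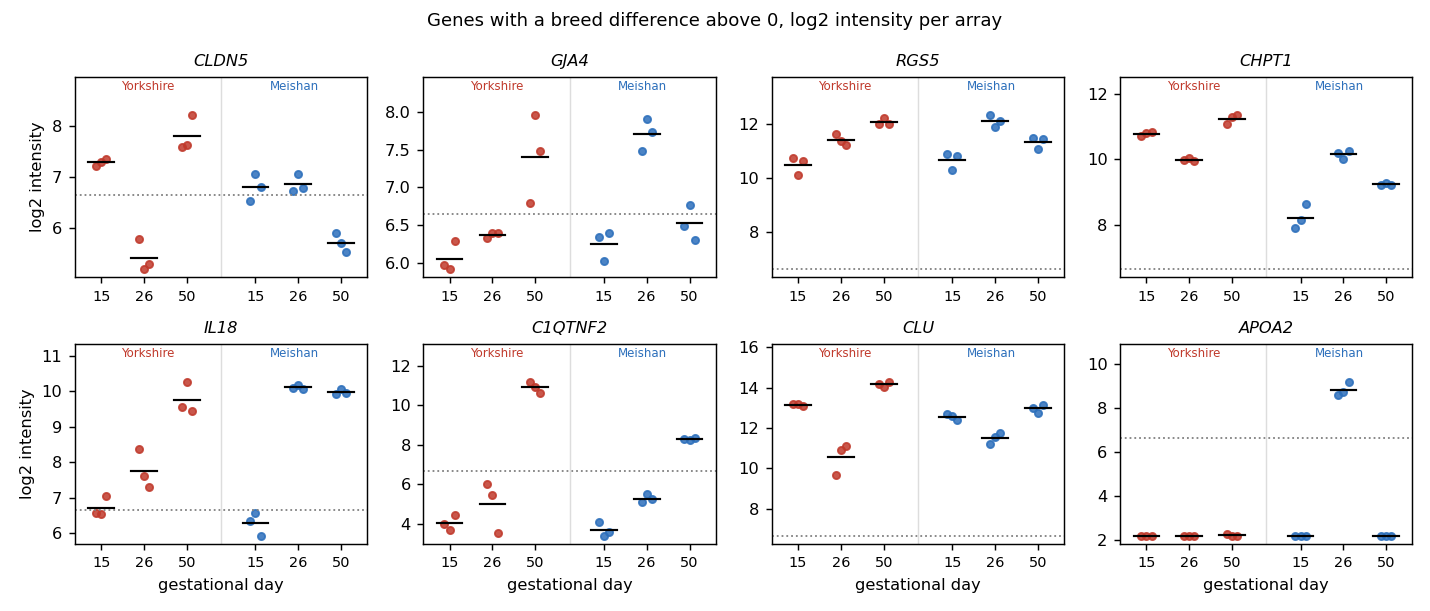
Log2 intensity of CLDN5, GJA4, RGS5, CHPT1, IL18, C1QTNF2, CLU and APOA2 in each array (points) with the group mean (bar), for Yorkshire in red and Meishan in blue at GD15, GD26 and GD50; the dotted line marks an intensity of 100. In the first 4 panels the points go up between GD26 and GD50 in Yorkshire and down in Meishan, and APOA2 leaves the lowest values in Meishan GD26 alone.

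A last group of higher differences came from genes that fell in Meishan. APOA2, an apolipoprotein of the liver, read 8.59, 8.74 and 9.18 in the Meishan GD26 arrays and between 2.18 and 2.29 in the other 15 arrays. It was at least 4.57-fold lower in Meishan GD50 than in Meishan GD26, and it entered the test only through the Meishan GD26 arrays. CPS1, the entry enzyme of the urea cycle, was at least 3.73-fold lower in Meishan GD50 than in Meishan GD26, with GD26 values of 5.56, 5.45 and 5.91 in Yorkshire arrays, against 8.86, 8.44 and 8.33 in Meishan arrays. Its Yorkshire values lay under 100 on both days, so no Yorkshire change was measurable, and its difference of 2.95 was 1.90 with the floor of 100 and held in 11 of 24 settings. CTSC, a lysosomal protease, was called on 2 of 4 probe sets, 1 of them in 16 of 24 settings, and on the one with the larger difference it fell in Meishan by 1.60. PLA2G7, a phospholipase that breaks down platelet-activating factor, fell in Meishan by 1.40 with a Yorkshire change of 0.08.

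Nutrient transporters went both ways, with 3 of 24 higher (12.5%, against 1.31% of all genes) and 2 lower (8.33%, against 1.37%). SLC7A9, a subunit of a transporter for cystine and basic amino acids, stood at 2.62, 3.12 and 2.26 in Yorkshire GD50 arrays and 2.94, 2.26 and 2.94 in Yorkshire GD26 arrays, and at 2.57, 2.94 and 2.26 in Meishan GD50 arrays, against 7.12, 6.79 and 7.30 in Meishan GD26 arrays. Only Meishan GD26 was measurable, at least 1.34-fold above Meishan GD50, and the call was lost when values under 100 were set to 100. SLC1A1, a glutamate transporter, fell in Meishan by 1.12, with its difference kept in 12 of 24 settings. SLC15A1, a peptide transporter, was at least 1.91-fold higher in Yorkshire GD50 than in Yorkshire GD26, with its difference also kept in 12 of 24 settings. The lower genes were SLC39A2 and FOLR1. SLC2A1, the main glucose transporter, fell in both breeds, by 0.58 in Yorkshire and by 0.79 in Meishan, with a difference of 0.21 that did not pass.

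Large functional groups showed no called difference as deposited. None of 57 ribosomal protein genes and none of 56 respiratory chain genes passed, with medians of 0.11 for both lists, and at 2.68% of all genes called a count of 0 is near the background. Of 21 cell division genes, 12 fell in Yorkshire and 13 in Meishan, against 10.7% and 7.6% of all genes, and none had a called difference. With the floor of 100, 5 fell in Yorkshire and 12 in Meishan, against 458 and 431 of all 4366 genes. With that floor 4 had a higher change in Yorkshire (19%, against 2.38% of all genes). Of 31 genes of cholesterol and lipid metabolism, 26 lay below 0 with a median of -0.28, and none was called, FASN with -1.31 and SCD with -1.08 included. The same held for smooth muscle, epithelial junction, integrin, metalloproteinase, glycolysis and hormone receptor genes, where the call counts were 0 in both directions. With the floor of 100, however, 2 of 14 integrin genes were called lower (14.3%, against 2.2% of all genes).

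Of 30 measured genes that the study discussed, none had a called difference as deposited, although several changed in both breeds. With the floor of 100, 5 were called higher (16.7%, against 2.38% of all genes) and 2 lower (6.67%, against 2.2%). SULT1E1, the estrogen sulfotransferase, was at GD50 at least 39.5-fold lower in Yorkshire and at least 30.5-fold lower in Meishan than at GD26. HMOX1, which breaks down heme, fell by 3.85 in Yorkshire and at least 10.7-fold in Meishan. HSD17B2, which inactivates estradiol, fell by 2.04 in Yorkshire and by 1.09 in Meishan, and its difference of -0.95 ± 0.25 (SE) missed the threshold (adjusted p = 0.0788) and passed it with the floor (adjusted p = 0.0401). STC1, the hormone stanniocalcin, fell in Meishan by 2.06 with -0.11 in Yorkshire, at an adjusted p = 0.0655 for the difference.

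**Figure D5:**
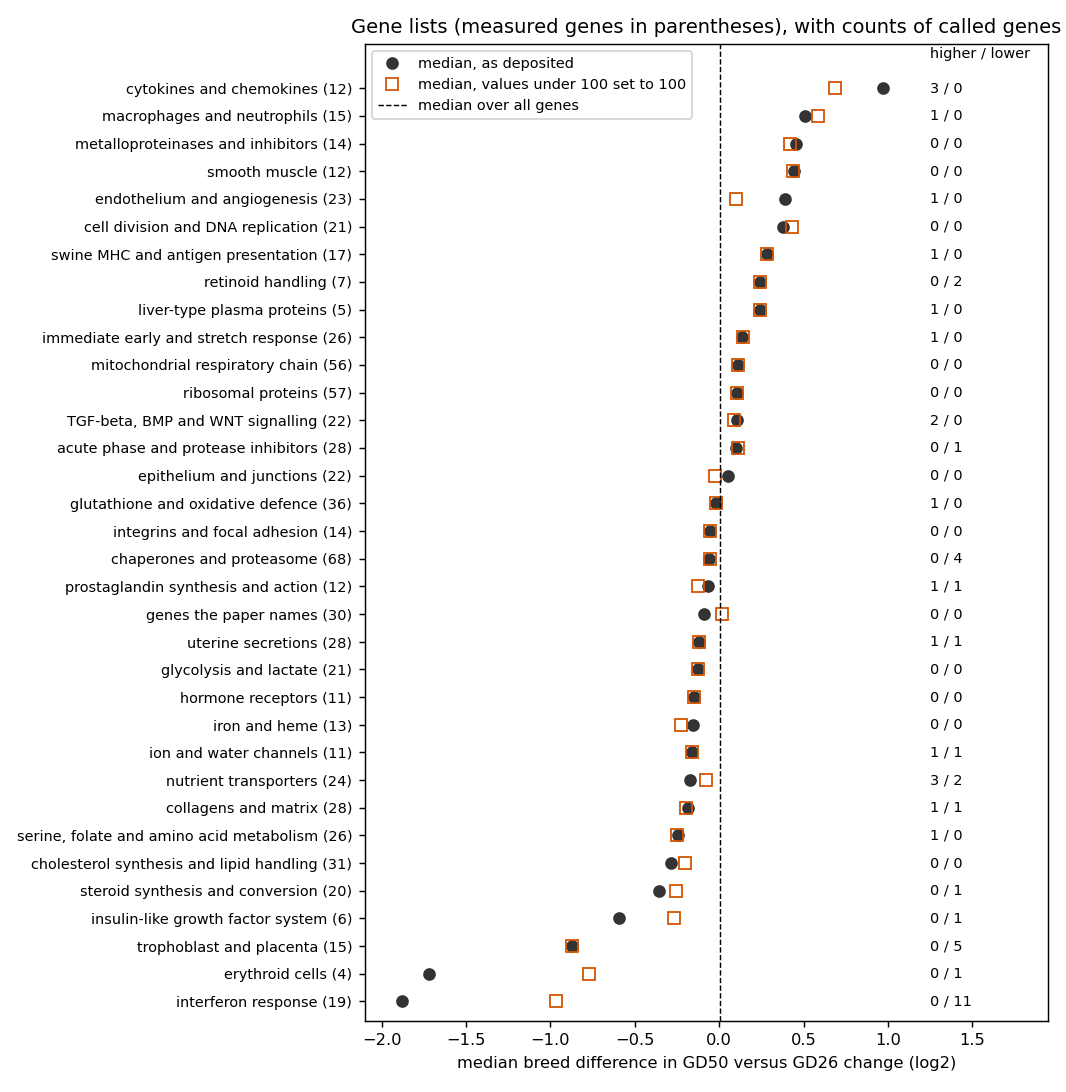
Median breed difference in the GD50 versus GD26 change (x axis, log2) over the measured genes of each list with at least 4, as deposited (filled points) and with values under 100 set to 100 (open squares), beside the counts of genes called higher and lower. The interferon list lies furthest to the left with 11 lower calls, and the cytokine list furthest to the right with 3 higher calls.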

How the data were processed

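Intensity files were read by the authors in R and background corrected, normalized and summarized with the affy and GCRMA packages, and log2 intensities per probe set (2.18 to 16.05) were deposited. The submitters' notes also name RMA, and versions are not given in the sources used here. No depth applies to arrays, and 3 arrays per group limit the precision. From these values, limma 3.58.1 in R 4.3.3 (lmFit, eBayes, prior 3.40 degrees of freedom) fitted 4 groups over 12 arrays, after a filter of intensity above 100 in at least 3 arrays. Benjamini-Hochberg adjustment ran over 9434 probe sets, with a threshold of 0.05. The study's methods also filtered before the fit, but asked for 6 arrays, an alternative here, and made no test of the breed difference.

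Gene names came from the platform annotation: 10099 of 24123 probe sets have 1 symbol, 198 several and 13826 none, and 124 are controls. In lists, a gene is its brightest probe set. If every array of the dimmer group was under 100, its mean was replaced by 100 and the fold is written "at least". Named genes are the 12 largest differences in each direction called with and without that floor, up to 8 of each orientation with opposite called changes, up to 4 called members per list, and the genes the study discussed; other list members are named after their values were seen. The members and the lists were chosen with earlier results of these data known. Within groups the arrays had correlations of 0.943 to 0.985, and no pair held more than 0.933% equal values. The fit was tested on simulated data. The alternatives were other normalizations, floors, filters, fits, thresholds, the replicate number as a block, and leaving out each array. Python 3.11.15 with matplotlib 3.10.9 drew the figures. Raw intensity files, enrichment of functions and probe sequences were not used here.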

Additional observations from a re-analysis of the deposited data

Results flagged for a closer look

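In 29 probe sets, 23 of them with 1 gene symbol, the test found a breed difference and both breeds changed in opposite directions between GD26 and GD50. Differences are in log2 units, and a positive one means a higher change in Yorkshire. Among the 12 genes that rose in Yorkshire and fell in Meishan it was 3.53 for CLDN5, 2.22 for GJA4, 2.16 for CHPT1, 1.77 for LITAF, 1.68 for ANKRD29 and 1.5 for UBXN4. It was 1.46 for PNRC2, 1.43 for RGS5, 1.41 for SPARCL1, 1.35 for SLA-8 on 1 of 2 probe sets, 1.16 for DYNLT3 and 1.08 for FBXO22 in the same direction. Among the 11 genes that fell in Yorkshire and rose in Meishan it was -4.93 for OAS1, -4.03 for ISG15, -4.00 for PLAC8, -3.37 for KLHDC7A and -3.0 for XAF1. It was -2.34 for IFIT1 on its dimmer probe set, -2.25 for B2M on 1 of 8 probe sets, -2.19 for IFIT3, -2.18 for IRF7, -1.88 for MX1 and -1.38 for ZBP1. With values under 100 set to 100, KLHDC7A, this probe set of B2M and ZBP1 were no longer called, and XAF1 lay under 100 in Yorkshire on both days. FBXO22 kept its call in 15 and ZBP1 in 10 of 24 settings. ANKRD29, DYNLT3, FBXO22 and ZBP1 are named after their values were seen. With 3 arrays a group, single arrays far from the rest were not searched for.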

How the results depend on the processing

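Main counts were 128 higher and 123 lower. They were 227 and 213 with a floor of 100, 203 higher with a floor of 50, 224 and 251 with all 18 arrays in the fit, 9 and 12 with Bonferroni, and 57 and 60 as gene symbols. Chosen after seeing the data, the hybridization control level as a covariate gave 238 and 217. The actin ratio, which does not overlap between breeds in the 12 arrays, gave 1 and 2. Leaving out single arrays gave 48 to 288 higher and 55 to 143 lower. The Yorkshire change had 1707 calls, 166 with Bonferroni, 925 with a log2 difference of at least 1, 835 as symbols, 956 with the actin ratio and 1346 to 1848 without single arrays. The Meishan change had 1218, and 116, 690, 573, 13 and 688 to 1486 in the same order. Yorkshire against Meishan at GD26 had 4612, and 433, 2506, 2109, 107 and 3568 to 5083, with 1758 under the hybridization covariate. At GD50 it had 4982, and 448, 2824, 2159, 4 and 3863 to 5431, with 1229. The causes were not tested. Deviations from the group mean correlated at -0.09 to 0.33 between same-numbered arrays of different groups, with a median of 0.07. Of these 18 pairs, 8 were over 0.1. Between differently numbered arrays the range was -0.31 to 0.20, the median -0.03, and 6 of 36 pairs were over 0.1. Whether the numbers pair samples was not tested. The replicate block gave 128 higher and 125 lower. BIRC5, not called at -0.01, was 0.98 with a floor of 100. Of 62 named called probe sets, 61 kept the call after median centring, 54 with a floor of 100, 58 with the replicate block, 39 to 58 without single arrays (39 without Meishan GD50 replicate 1, 41 without its replicate 2 or 3) and 1 with the actin ratio. The dimmer Yorkshire arrays put more genes under 100, where only bounds can be given.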
